A study of Mus musculus with 4 samples.

Results

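The genes examined here are 31 coagulation and fibrinolysis genes of the mouse, chosen by name for what their proteins do in blood clotting and found by Entrez gene number among the 17543 genes of 4 liver transcriptomes. They comprise 15 procoagulant genes, 9 anticoagulant genes, 5 genes of fibrinolysis and 2 enzymes of the vitamin K cycle. All 31 were present in the tables and all 31 passed the filter on low counts, as did 12837 genes in total. The livers came from C57BL/6 mice, 2 labelled wild type (WT) and 2 labelled Ezh2(K307R/K307R), in which a point mutation lies on both copies of Ezh2, the catalytic subunit of the H3K27 methyltransferase PRC2. Both groups shared strain and tissue. The labels give no age, sex, treatment or hour of collection, and do not say that the replicates were separate animals, so that p-values here measure only the spread between these samples. RNA was taken from flash-frozen liver tissue, so that fewer cells of a type and less RNA per cell cannot be told apart.

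Clotting proceeds as a cascade in which inactive plasma proteases activate one another. A contact branch (factor XII, plasma kallikrein, kininogen, factor XI) and a tissue factor branch (factor VII) meet at factor X, which with factor V turns prothrombin into thrombin, and thrombin turns fibrinogen into fibrin. Antithrombin, heparin cofactor II, protein C and protein S restrain the cascade, and plasmin dissolves the fibrin. Hepatocytes make most of these proteins, while von Willebrand factor, thrombomodulin and the endothelial protein C receptor are known as products of endothelium. Vitamin K is needed to carboxylate a subset of the factors before secretion.

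The deposited expected counts summed to between 18602928 and 20044832 per liver. Levels within a gene are given as CPM (counts scaled to a common TMM-adjusted library size), and levels between genes as the deposited FPKM, which are divided by transcript length. Ezh2 itself was at 3.36 and 3.93 CPM in the wild-type livers and at 3.45 and 2.56 CPM in the mutant livers, which does not check a point mutation. The hepatocyte markers were abundant in every liver, with Alb, the albumin gene, between 98489 and 105307 CPM. The sex-chromosome transcripts split with genotype. Xist was at 0.347 and 0.284 CPM in the wild type and at 327 and 573 CPM in the mutants, and the Y-linked gene Ddx3y was at 67.6 and 52.5 CPM against 0 in both mutants. The clock gene Arntl was at 1.10 and 1.18 CPM against 12.3 and 23.7 CPM. Genotype, sex-chromosome pattern and clock state therefore cannot be told apart in any comparison below.

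Most of the clotting genes had small fold changes in the mutant livers, and 1 gene, F11 (factor XI), passed the test. With p-values from edgeR's quasi-likelihood fit, adjusted by Benjamini-Hochberg over all genes and called under 0.05, F11 was lower in the mutants and 0 of the 31 genes were higher. Among all 12837 genes tested, 2.86% were called, 1.39% higher and 1.47% lower, so that 1 call in 31 is near the share of the whole transcriptome. Total-count scaling turned the split of calls over all genes from 178 higher and 189 lower to 188 higher and 124 lower. At an unadjusted p under 0.05, 2 of the 31 genes were lower, F11 and Pros1, and 0 were higher, against 16.8% of all genes. DESeq2, which called 5.95% of all genes, and limma-voom, which called 2.3%, each called 1 of the 31 lower and 0 higher. The gene was F11 in both. The log2 fold changes of the 31 genes ran from -1.01 to 0.51, with a median of 0.10, against a median of 0.01 over all genes. Without WT replicate 2 the median of the 31 was -0.001, without WT replicate 1 it was 0.157, without K307R replicate 1 it was 0.044, and with total counts it was 0.170. Their median absolute log2 fold change was 0.14, and that of all genes 0.28. For 23 of the 31 genes the 95% interval of the log2 fold change lay wholly within a 2-fold change in either direction, as it did for 7313 of the 12837 genes tested.

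**Figure D1:**
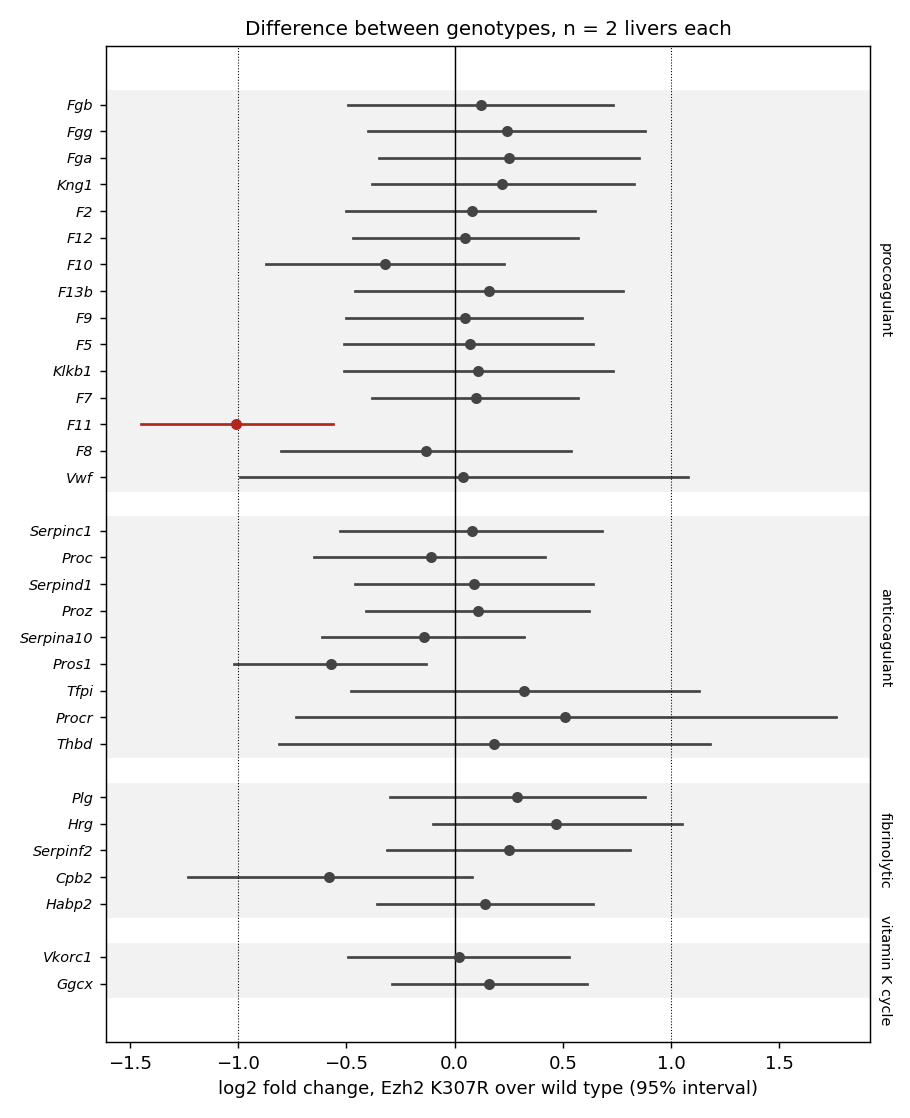
Log2 fold change of each of the 31 genes between genotypes (horizontal axis, Ezh2 K307R over wild type, n = 2 livers each), by role and, within a role, in order of mean FPKM. Points are edgeR estimates, bars 95% intervals and dotted lines a 2-fold change. F11, in red, was the gene called, at -1.01, and Procr, the gene with the fewest reads, had the widest interval, from -0.73 to 1.76.

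By length-scaled abundance these genes ranged widely. The 3 fibrinogen chains were among the most abundant transcripts of the liver, with Fgb at rank 31, Fgg at 36 and Fga at 40 of the 17543 genes by mean FPKM. Kng1 (rank 54), Serpinc1 (64), Plg (69), F2 (74) and Hrg (78) followed. At the other end stood the genes of known endothelial origin, with F8 at rank 10886 and Vwf at 12737. Together the 31 genes took up 2.83% and 2.88% of the counts in the wild-type livers against 3.49% and 3.30% in the mutant livers. The fibrinogen chains alone took up 1.25% and 1.21% against 1.53% and 1.49%. These shares are of unscaled counts, and the TMM factor was 0.896 in wild-type replicate 1 against 1.014 to 1.055 in the other 3 livers.

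**Figure D2:**
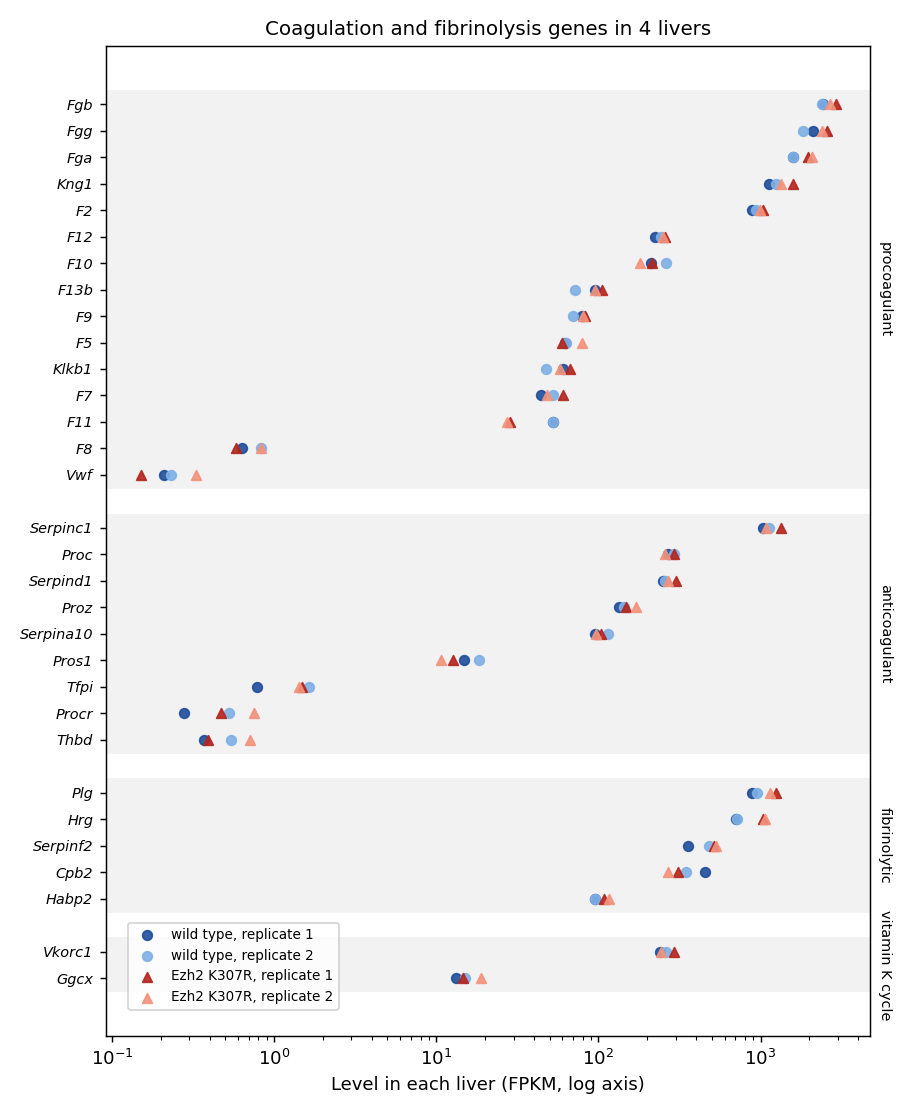
Level of each of the 31 genes in every liver (horizontal axis, deposited FPKM on a log axis), by role. Circles are wild-type and triangles Ezh2 K307R livers; the fibrinogen genes lie at 1578 FPKM or above in every liver, Vwf at 0.33 or below, and both triangles of F11 lie below both circles.

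Fibrinogen, the soluble precursor of the clot, is a hexamer of paired alpha, beta and gamma chains, encoded by 3 adjacent genes on chromosome 3 of mm10. Fgg lies at chr3:83007724-83015056, Fga at chr3:83026153-83033627 and Fgb at chr3:83042246-83049863, with gaps of 11.1 and 8.62 kb between them. Fga was at 5259.5 and 4563.5 CPM in the wild type and at 5778 and 5913 CPM in the mutants, so that both mutant livers lay above both wild-type livers. Its log2 fold change was 0.25 (SE 0.26, edgeR adjusted p = 0.693). Fgb was at 4655 and 3895 CPM against 4912 and 4400 CPM (0.12, SE 0.26, edgeR adjusted p = 0.862). Fgg was at 4057 and 3028 CPM against 4414 and 3950 CPM (0.24, SE 0.28, edgeR adjusted p = 0.732). In CPM the mutant and wild-type livers overlapped for Fgb and Fgg, while in deposited FPKM both mutants lay above both wild types for these genes. None of the 3 chains passed the test. The shares of the chains in the summed fibrinogen FPKM were similar between livers. Fga made up 26% and 27.1% in the wild type against 26.3% and 29.2% in the mutants. Fgb made up 39.8% and 41.2% against 39% and 37.5%, with no overlap between genotypes. Fgg made up 34.2% and 31.6% against 34.7% and 33.3%.

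The 250 bases before the start of each fibrinogen gene are shown because the shares of the chains were similar between livers. They come from RefSeq's promoter windows of GRCm38.p6, the assembly of mm10, in which 25 of the 31 genes had an entry. All are written 5′ to 3′ on the strand of the gene, and capitals mark matches to any of 8 short motifs searched on both strands. The positions are chr3:83025903-83026152 for Fga (plus strand), chr3:83049864-83050113 for Fgb (minus strand) and chr3:83007474-83007723 for Fgg (plus strand).
Fga: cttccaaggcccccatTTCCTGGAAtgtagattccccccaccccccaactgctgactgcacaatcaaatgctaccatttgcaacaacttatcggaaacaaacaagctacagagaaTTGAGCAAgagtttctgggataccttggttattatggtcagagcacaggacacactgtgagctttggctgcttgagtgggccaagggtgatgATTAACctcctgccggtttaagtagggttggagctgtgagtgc
Fgb: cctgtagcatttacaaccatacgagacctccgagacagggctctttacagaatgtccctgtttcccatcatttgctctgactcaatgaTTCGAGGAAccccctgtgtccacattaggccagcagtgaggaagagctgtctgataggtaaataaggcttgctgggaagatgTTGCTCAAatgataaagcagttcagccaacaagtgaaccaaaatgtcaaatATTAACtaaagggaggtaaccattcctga
Fgg: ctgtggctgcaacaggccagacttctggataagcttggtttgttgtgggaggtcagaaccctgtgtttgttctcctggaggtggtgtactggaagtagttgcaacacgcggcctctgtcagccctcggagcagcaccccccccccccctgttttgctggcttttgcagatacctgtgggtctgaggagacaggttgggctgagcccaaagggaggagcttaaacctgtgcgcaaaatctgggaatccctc
In Fga and Fgb the capitals mark, in order, the STAT letters TTCNNNGAA, the C/EBP letters TTNNGCAA and the half-site GTTAAT of HNF1 (read as ATTAAC, on the other strand), and in Fgb the C/EBP letters are also on the other strand. These are 3 motifs whose factors are known regulators of liver or acute phase genes. The HNF1 half-site began 43 bases before the start of Fga and 29 before that of Fgb, and the C/EBP letters 135 and 80 bases before. The window of Fgg held none of the 8 motifs. Over all 32817 promoter windows of this length, GTTAAT was present in 6.44%, TTNNGCAA in 9.57% and TTCNNNGAA in 7.01%. Over the 26 windows of the clotting genes they were present in 5, 9 and 4. The other motifs were ATTGAT of HNF6 (5 of the 26 windows, 6.73% of all), TTANGTAA of the PAR bZIP factors (1, 2.06%), TATAAA of the TATA box (2, 12.4%), TGTTTGC of FOXA (0, 4.30%) and CAAAGTCCA of HNF4 (0, 0.384%). No window position was shared by 2 of these motifs in the sequences shown.

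The 1 gene called, F11, belongs to the contact branch. F11 (chr8:45240659-45262055) encodes factor XI, the protease that activates factor IX and sustains thrombin formation. It was at 132 and 113 CPM in the wild-type livers and at 63.6 and 58.6 CPM in the mutant livers. Both mutant livers were below both wild-type livers, and the gap between the genotype means was wider than the gap within either genotype. The log2 fold change was -1.01 (SE 0.19, 95% interval -1.45 to -0.56, edgeR adjusted p = 0.0396), a level 0.498 times that of the wild type. The direction was the same in all 14 alternative settings, with values from -1.12 to -0.89. The call itself was lost when WT replicate 1 (edgeR adjusted p = 0.0803), K307R replicate 1 (0.0786) or K307R replicate 2 (0.137) was left out. It was also lost with limma on log2(FPKM + 1) (adjusted p = 0.0603) and log2(FPKM + 0.1) (0.064). Over all alternatives the adjusted p ran from 6.65e-04 to 0.137. In deposited FPKM, F11 was at 52.6 and 52.8 against 28.5 and 27.1. The summed level of 10 hepatocyte markers was 188923 and 181159 CPM in the wild type against 163632 and 164765 CPM in the mutants. Alb made up most of this sum, and Fgb, one of the 31 genes, was on the list. By edgeR 0 of the 10 were called, with 1 at an unadjusted p under 0.05. DESeq2 called 1 of the 10, lower, and limma-voom 0. Their median log2 fold change was -0.31, with 8 negative and 2 positive values. In CPM both mutants lay below both wild types for 5 markers and above for 0, against 23.4% and 25.2% of all genes tested. The part of hepatocyte RNA, sex-chromosome pattern or clock state in the fall of F11 was not tested.

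Beside F11, 4.63 kb away on the same chromosome, lies Klkb1 (chr8:45266688-45294835), which encodes plasma prekallikrein and is a close relative of F11 in sequence and domain order. Klkb1 was at 359 and 237.5 CPM in the wild type and at 347 and 296 CPM in the mutants, with full overlap of the genotypes. Its log2 fold change was 0.11 (95% interval -0.51 to 0.73, edgeR adjusted p = 0.885). Set against its neighbour in the same liver, F11 stood at 0.368 and 0.475 of the Klkb1 CPM in the wild type and at 0.183 and 0.198 in the mutants. The ratios did not overlap, but with 2 livers a genotype the smallest p of a two-sided exact permutation test is 0.333, which is also the value here. The upstream windows of the pair, chr8:45262032-45262281 for F11 and chr8:45294836-45295085 for Klkb1, both on the minus strand, are shown because neighbouring relatives differed in their values. The outermost annotated end of F11, at base 45262055, lies slightly upstream of the start used for its window. The C/EBP letters marked in the F11 window therefore fall inside the annotated span of the gene.
F11: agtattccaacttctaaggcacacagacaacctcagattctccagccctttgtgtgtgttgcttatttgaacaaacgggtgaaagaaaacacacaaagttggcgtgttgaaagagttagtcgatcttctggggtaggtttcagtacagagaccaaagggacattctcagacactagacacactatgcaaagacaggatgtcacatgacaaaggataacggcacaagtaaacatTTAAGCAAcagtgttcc
Klkb1: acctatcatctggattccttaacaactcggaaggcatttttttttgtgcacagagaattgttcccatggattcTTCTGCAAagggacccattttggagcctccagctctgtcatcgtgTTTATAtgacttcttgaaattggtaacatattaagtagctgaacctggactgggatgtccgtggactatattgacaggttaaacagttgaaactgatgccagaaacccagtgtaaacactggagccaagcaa
The capitals mark C/EBP letters 17 bases before the start of F11, and, in Klkb1, C/EBP letters 177 bases and TATA letters on the other strand 132 bases before the start. A match of letters is a description of the window and no evidence that a factor binds there.

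The other contact factors did not pass the test. F12, the protease that starts the contact branch, was at 490 and 456 CPM against 503 and 477 CPM (log2 fold change 0.05, edgeR adjusted p = 0.941). Kng1 encodes high and low molecular weight kininogen, the cofactor of the contact proteases and source of bradykinin. It was at 2406 and 2238.5 CPM against 2994 and 2434 CPM (0.22, edgeR adjusted p = 0.733), with both mutants above both wild types. Kng2, a closely related kininogen gene whose reads could have been divided with those of Kng1, was at 254.5 and 271 CPM against 365 and 261 CPM (0.25, edgeR adjusted p = 0.667). The single values of these kininogen genes are uncertain for that reason.

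The hepatocyte enzymes and cofactors that act between the contact branch and fibrin had log2 fold changes between -0.32 and 0.16. F9, the X-linked gene of the protease missing in haemophilia B, was at 241 and 179 CPM against 224 and 210 CPM (0.05, edgeR adjusted p = 0.948). F7, the partner of tissue factor, was at 93.0 and 93.6 CPM against 113 and 86.6 CPM (0.10, 0.862). F5, the cofactor of factor Xa, was at 521 and 454 CPM against 444.5 and 576 CPM (0.07, 0.928). F2, the prothrombin gene, was at 2035 and 1817 CPM against 2097 and 1961 CPM (0.08, 0.916). F13b, the carrier subunit of the fibrin crosslinking factor XIII, was at 255 and 162 CPM against 248 and 217 CPM (0.16, 0.818). For all 5 the livers of the genotypes overlapped in CPM. In deposited FPKM both mutants lay above both wild types for F2 (886 and 931 against 1033 and 995) and F9 (79.0 and 69.8 against 83.2 and 80.7). F5, F7 and F13b overlapped in FPKM as well. The catalytic subunit gene F13a1 had 1 to 3 reads per liver and was not tested.

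F10, the protease at which both branches meet, was the only other procoagulant gene with both mutants below both wild types in CPM. It was at 592 and 623 CPM in the wild type and at 536 and 440 CPM in the mutants (log2 fold change -0.32, 95% interval -0.87 to 0.23, edgeR adjusted p = 0.564). In deposited FPKM the livers overlapped, at 210 and 260 against 215 and 181. F10 lies between F7 and Proz on chromosome 8, with gaps of 1.5 and 3.91 kb. Its neighbours stood at log2 fold changes of 0.10 and 0.11. The ratio of F10 to F7 CPM was 6.37 and 6.66 in the wild type against 4.75 and 5.08 in the mutants (two-sided exact permutation p = 0.333, the smallest possible).

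Among the inhibitors, Pros1 had the lowest p. It encodes protein S, the cofactor of activated protein C, at chr16:62854307-62929346. It was at 55.5 and 58.1 CPM in the wild type and at 42.1 and 34.3 CPM in the mutants, so that the genotypes did not overlap. The log2 fold change was -0.57 (SE 0.19, 95% interval -1.02 to -0.13), and it did not pass the threshold over all genes (edgeR adjusted p = 0.186). Its partner Proc, the gene of protein C, was at 477 and 443 CPM against 461 and 389 CPM (-0.11, edgeR adjusted p = 0.853), with overlap. The ratio of Pros1 to Proc CPM was 0.116 and 0.131 against 0.0914 and 0.0881.

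The plasma serpins of the anticoagulant group had log2 fold changes between -0.14 and 0.09. Serpinc1, which encodes antithrombin, the main inhibitor of thrombin and factor Xa, was at 2523 and 2336.5 CPM against 2857 and 2267 CPM (log2 fold change 0.08, edgeR adjusted p = 0.920). Serpind1, which encodes heparin cofactor II, was at 617 and 540.5 CPM against 657 and 574 CPM (0.09, 0.895). Serpina10, the protein Z-dependent inhibitor of factor Xa, was at 171 and 175.5 CPM against 165 and 150 CPM (-0.14, 0.784). In CPM, only Serpina10 of these 3 had mutants that did not overlap the wild type, and its 95% interval ran from -0.61 to 0.32. In deposited FPKM Serpina10 overlapped, at 95.1 and 115 against 103 and 96.9, and Serpind1 did not, at 250 and 258 against 301 and 271. Proz, which encodes protein Z, the cofactor of that inhibitor, was at 361 and 329 CPM against 351 and 392 CPM (0.11, 0.859). In all, 0 of the 9 anticoagulant genes were called by edgeR, DESeq2 or limma-voom, and 1, Pros1, had an unadjusted p under 0.05.

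The 5 genes known chiefly from endothelium were measured from few reads and gave wide intervals. Vwf, whose product carries factor VIII and tethers platelets, was at 2.08 and 1.94 CPM against 1.33 and 2.81 CPM, with an interval from -0.99 to 1.08. F8, the X-linked gene of the haemophilia A factor, was at 5.21 and 5.87 CPM against 4.24 and 5.88 CPM (-0.80 to 0.54). Thbd, the thrombomodulin gene, was at 1.56 and 1.94 CPM against 1.43 and 2.56 CPM (-0.81 to 1.18). Procr, the protein C receptor gene, was at 0.463 and 0.757 CPM against 0.690 and 1.07 CPM (-0.73 to 1.76), and Tfpi, the inhibitor of the tissue factor branch, at 2.14 and 3.12 CPM against 3.50 and 3.12 CPM (-0.48 to 1.13). The genotypes overlapped in all 5. The 9 sinusoidal endothelial markers summed to 116 and 148 CPM in the wild type and to 167 and 184 CPM in the mutants. Of these markers, 0 were called by edgeR, DESeq2 or limma-voom. At an unadjusted p under 0.05, 4 were higher and 1 lower, against 16.8% of all genes. Their median log2 fold change was 0.46. The 10 other endothelial markers summed to between 69.2 and 99.4 CPM, with 0 called by the same tools and 1 at an unadjusted p under 0.05. Of 10 megakaryocyte and platelet markers, cells that also make von Willebrand factor, 4 had enough reads to be tested, with 0 called by edgeR, DESeq2 or limma-voom and 0 at an unadjusted p under 0.05. The list summed to 3.88 and 8.57 CPM against 9.55 and 5.17 CPM. The part of these cells in the 5 values was not tested.

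The fibrinolysis genes had the highest median log2 fold change of the 4 classes, 0.25, against 0.08 for the procoagulant, 0.09 for the anticoagulant and 0.09 for the vitamin K genes. The difference between classes was not tested, and the fibrinolysis class holds genes of opposed function. Its median is the value of Serpinf2, which encodes an inhibitor of plasmin. Leaving out 1 liver moved the procoagulant median from -0.006 (without WT replicate 2) to 0.166 (without WT replicate 1) and the anticoagulant median from -0.026 (without K307R replicate 1) to 0.081. The fibrinolysis median ran from 0.189 to 0.261 and the vitamin K median from 0.047 (without WT replicate 2) to 0.133. With total counts the medians were 0.157, 0.170, 0.316 and 0.170 for the procoagulant, anticoagulant, fibrinolysis and vitamin K genes. Plg, the gene of plasminogen, was at 2765 and 2495 CPM in the wild type and at 3408 and 3026 CPM in the mutants (log2 fold change 0.29, edgeR adjusted p = 0.629). Serpinf2, whose product alpha-2-antiplasmin inhibits plasmin, was at 883 and 1009 CPM against 1124 and 1122 CPM (0.25, edgeR adjusted p = 0.673). In both genes the mutants lay above the wild type, but the differences did not pass the test. Hrg encodes histidine-rich glycoprotein, which binds heparin, plasminogen and fibrinogen. It was at 1385 and 1196 CPM against 1787 and 1796 CPM, a log2 fold change of 0.47 (SE 0.25, 95% interval -0.10 to 1.05, edgeR adjusted p = 0.396). Hrg lies 96.6 kb from Kng1 on chromosome 16, and its ratio to Kng1 CPM was 0.576 and 0.534 in the wild type against 0.597 and 0.738 in the mutants. Habp2, which encodes a protease that can activate factor VII and pro-urokinase, was at 226.5 and 193 CPM against 226 and 237 CPM (0.14, edgeR adjusted p = 0.799).

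Cpb2 went the other way among the fibrinolysis genes. It encodes TAFI, the carboxypeptidase that, once activated by thrombin, removes plasminogen-binding lysines from fibrin. Cpb2 was at 761 and 489.5 CPM in the wild type and at 455 and 383 CPM in the mutants. Both mutants lay below both wild types, but the wild-type livers differed from each other by more than the mean gap between genotypes. The log2 fold change was -0.58 (SE 0.28, 95% interval -1.23 to 0.08, edgeR adjusted p = 0.363). Without WT replicate 1 it was -0.23. Of the 5 fibrinolysis genes, 0 were called by edgeR, DESeq2 or limma-voom, and 0 had an unadjusted p under 0.05.

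**Figure D3:**
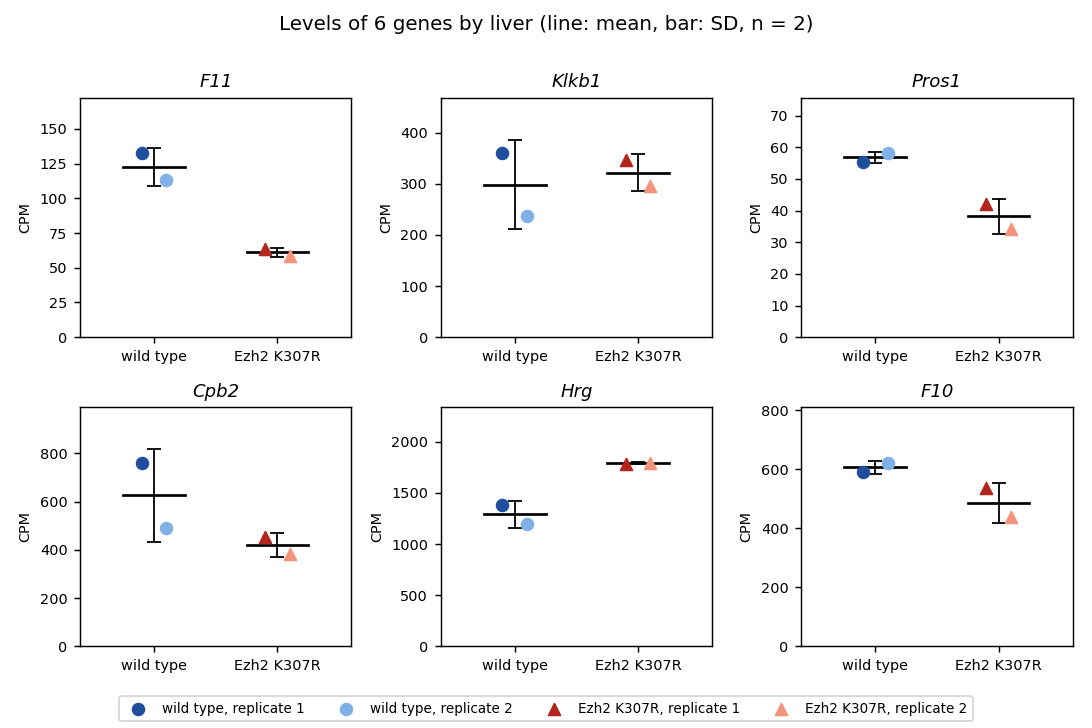
CPM (vertical axis, from 0) of 6 genes in each liver, with the mean (line) and SD (bar) of the 2 livers of a genotype. F11 separates at 132 and 113 against 63.6 and 58.6 CPM while its neighbour Klkb1 overlaps, and Pros1, Cpb2, Hrg and F10 do not overlap but miss the threshold.

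The vitamin K cycle and the 7 proteins that depend on it showed no call. Ggcx, the carboxylase, was at 49.5 and 47.5 CPM against 48.1 and 60.4 CPM (log2 fold change 0.16, edgeR adjusted p = 0.747). Vkorc1, the reductase that warfarin blocks, was at 199 and 183 CPM against 214 and 173 CPM (0.02, edgeR adjusted p = 0.979). The 7 dependent genes, F2, F7, F9, F10, Proc, Pros1 and Proz, had a median of 0.05 and ran from -0.57 to 0.11. Of these, 4 had positive and 3 negative values, 0 were called by edgeR, DESeq2 or limma-voom, and 1 had an unadjusted p under 0.05.

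How many genes separated the genotypes depended on the scaling. In TMM-scaled CPM, both mutants lay above both wild types for 5 of the 31 genes (Fga, Kng1, Plg, Serpinf2 and Hrg) and below for 5 (F10, F11, Pros1, Serpina10 and Cpb2), against 25.2% and 23.4% of all genes tested. In the deposited FPKM the counts were 13 above and 3 below, against 29% and 16.9%. The 3 below were F11, Pros1 and Cpb2, and the 13 above included the 3 fibrinogen genes, Kng1, Plg, Serpinf2, Hrg and F2.

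In TMM-scaled CPM, the 24 genes of hepatocyte origin tended to be high or low together within a genotype. Of these, 19 were higher in wild-type replicate 1 than in replicate 2, with a median log2 ratio of 0.18, and 19 were higher in mutant replicate 1 than in replicate 2, with a median of 0.16. Over all genes tested the medians were -0.01 and -0.00, with 6314 of 12794 and 6405 of 12811 genes higher. The wild-type pattern depended on the scaling, as the TMM factor was 0.896 in replicate 1 and 1.055 in replicate 2. In unscaled counts the 24 genes together took up less of wild-type replicate 1 (2.81%) than of replicate 2 (2.86%). In the mutants they took up 3.47% and 3.27%.

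Of the 31 genes, 22 had 1 transcript in the tables and 9 had several, and the share of each transcript in the FPKM of its gene was compared by liver without a test. RSEM divides reads between transcripts that share most of their sequence, so these shares are estimates. The 2649-base transcript of Fga made up 60.3% and 48.3% in the wild type against 56.4% and 60.1% in the mutants. The longer, 1890-base transcript of Fgg was minor throughout, at 7.44% and 7.87% against 6.94% and 6.19%, with no overlap between genotypes. The 3 transcripts of Kng1, from a gene known to splice into the high and low molecular weight kininogens, kept their proportions. The 1756-base form was at 50% and 44.7% against 49.0% and 49.7%, and the 2299-base form between 10.8% and 12.9%. The main Proc transcript of 1584 bases was between 62.1% and 66.0% in the 4 livers.

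Transcript shares of F9, F8 and Tfpi varied between livers. The 2735-base form of F9 made up 78.5% and 49.1% in the wild type against 72.4% and 62.7% in the mutants, with overlap. For F8 the 7312-base form was at 49.2% and 0% in the wild type and at 87.9% and 100% in the mutants. The transcripts of F8 differ by 6 bases in length and rest on 80 to 124 reads per liver for the gene. For Tfpi, the 3027-base form was at 0% and 33.7% against 56.4% and 0%, and the 2993-base form at 64.1% and 0% against 0% and 52.8%, from 37 to 66 reads per liver for the gene. Whether the F8 and Tfpi shares reflect assignment by RSEM was not tested.

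**Figure D4:**
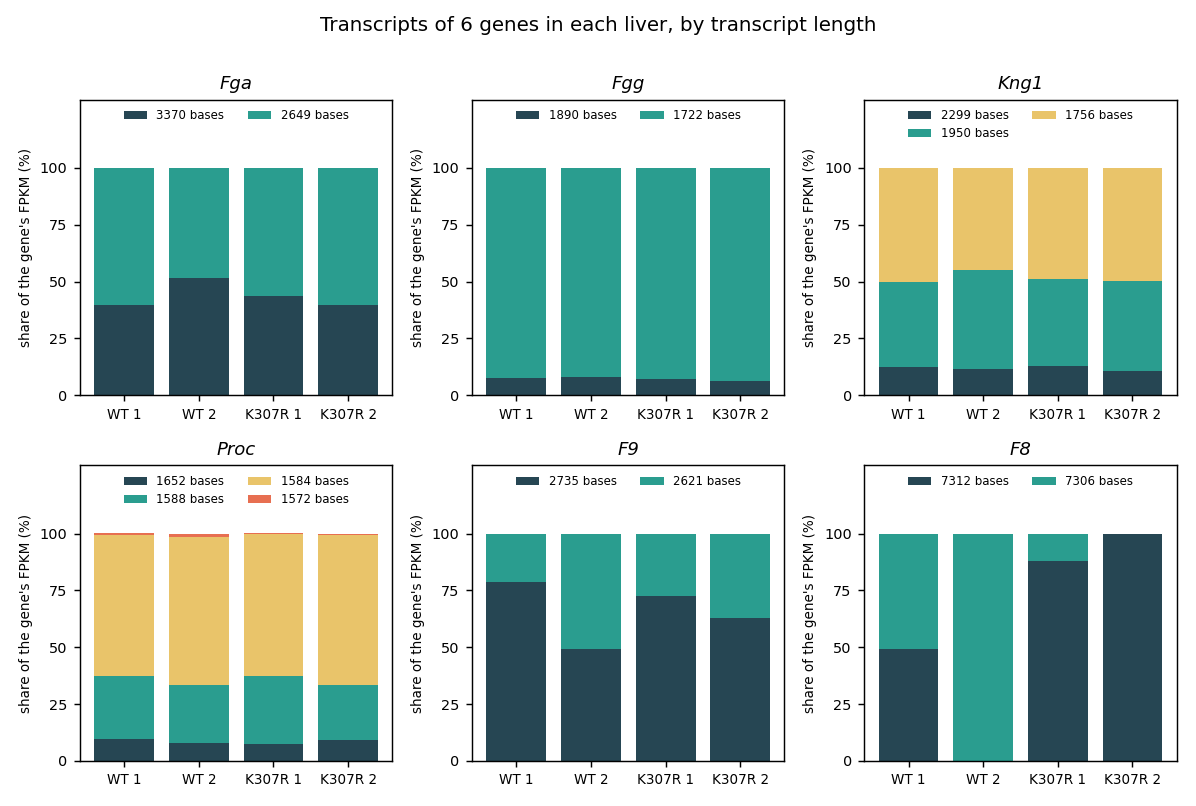
Share of each transcript in the FPKM of its gene (vertical axis, percent) in each of the 4 livers, for 6 genes with several transcripts, coloured by transcript length. Fgg, Kng1 and Proc show similar bars in every liver, while F9 and F8 vary between livers.

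A wider list of 41 other genes of the pathway (tissue factor, plasminogen activators and their inhibitors, thrombin receptors, secretion cofactors and clearance receptors) was read from the same fit. Of these, 39 were in the tables and 32 were tested. By edgeR 0 were called, against 2.86% of all genes, with 3 higher and 3 lower at an unadjusted p under 0.05. DESeq2 called 1 higher and 2 lower, and limma-voom 0. The median log2 fold change was 0.03. F2r, the thrombin receptor PAR1, had the smallest p, at 44.6 and 17.4 CPM in the wild type and 7.53 and 8.70 CPM in the mutants (log2 fold change -1.93, SE 0.41, edgeR adjusted p = 0.0525). Serpine2, a serpin that inhibits thrombin and plasminogen activators on cell surfaces, was at 1.62 and 1.70 CPM against 3.34 and 6.96 CPM (1.63, SE 0.42, edgeR adjusted p = 0.0942). Gas6, a vitamin K-dependent relative of protein S, was at 23.8 and 36.6 CPM against 55.1 and 50.7 CPM (0.81, SE 0.24, edgeR adjusted p = 0.135). Lman1, the cargo receptor that carries factors V and VIII out of the endoplasmic reticulum, was at 330 and 306 CPM against 179 and 209 CPM (-0.71, SE 0.22, edgeR adjusted p = 0.152). In these 4 genes, picked for the smallest p of the list, the genotypes did not overlap in CPM. Among all genes tested, both mutants lay above both wild types in 25.2% and below in 23.4%, so this adds little to the p-values. F5 and F8, the cargo of Lman1, had log2 fold changes of 0.07 and -0.13.

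Beside the clotting genes, a list of 25 regulators of hepatocyte genes was read from the same fit. Part of this list is not reported here, so its counts of calls are not given. In it Nr1i3, which encodes the xenobiotic receptor CAR, rose from 53.4 and 50.1 CPM to 94.2 and 143 CPM (log2 fold change 1.20, SE 0.24, edgeR adjusted p = 0.0441). That value is close to the threshold of 0.05, and edgeR called 2.86% of all genes tested. Of 23 acute phase genes, a list that includes the 3 fibrinogen genes, edgeR called 1 higher and 1 lower, against 2.86% of all genes. DESeq2 called 2 higher and 5 lower, limma-voom 2 higher and 1 lower, and 3 were higher and 6 lower at an unadjusted p under 0.05, against 16.8% of all genes. Lbp, the lipopolysaccharide-binding protein gene, rose from 51.8 and 60.6 CPM to 108 and 133 CPM (1.10, SE 0.20, edgeR adjusted p = 0.0365), and the serum amyloid gene Saa1 fell from 36.7 and 41.9 CPM to 19.4 and 14.3 CPM (-1.22, SE 0.22, edgeR adjusted p = 0.0341). The list's median was -0.01. Markers of other cells were also read, and their part in the values of the clotting genes was not tested. Of 8 stellate cell markers edgeR called 2 higher and 0 lower, DESeq2 4 higher and limma-voom 2 higher, with 6 higher at an unadjusted p under 0.05 and a median log2 fold change of 1.20. Their summed level was 142 and 227 CPM against 508.5 and 399 CPM. Of 8 Kupffer cell markers edgeR called 0 higher and 1 lower, C6, at 147 and 80.5 CPM against 11.9 and 14.0 CPM. DESeq2 called 1 higher and 1 lower, 4 were higher at an unadjusted p under 0.05, and the median was 0.48. The summed level, 296 and 263 against 316 and 215 CPM, includes C6. Of 7 erythroid markers 5 were tested, and edgeR called 0 higher and 1 lower, Alas2, at 108 and 62.3 CPM against 16.8 and 27.6 CPM. The other 4, all globin genes, were higher at an unadjusted p under 0.05, and DESeq2 called 3 higher and 1 lower. The erythroid sum was 437 and 553 CPM against 674 and 771 CPM. C6 and Alas2 were singled out after their values were seen. The bile duct, lymphocyte and neutrophil lists had 0 calls by edgeR, DESeq2 or limma-voom, with 1, 0 and 1 members at an unadjusted p under 0.05.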

How the data were processed

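Liver RNA from 2 wild-type and 2 Ezh2 K307R samples was sequenced, and 1 transcript table per sample was deposited. Each holds expected counts and FPKM per RefSeq transcript, deposited by the authors and labelled so per the file headers. HISAT, Bowtie2, RSEM and the build mm10 appear in the submitters' processing notes, with versions not given in the sources used here. Expected counts and FPKM were summed per Entrez gene, and summed counts were rounded to whole numbers. The 41 genes with no gene name (0.0377% to 0.0428% of the counts) were kept under their Entrez number.

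Genes were filtered with filterByExpr (12837 of 17543 kept), scaled by TMM and fitted on genotype alone with edgeR 4.0.16. Its quasi-likelihood p-values were adjusted by Benjamini-Hochberg over all genes tested. Alternatives used DESeq2 1.42.0, limma 3.58.1, other scalings, filters and pseudocounts, a replicate block, and each liver left out in turn. Standard errors are of the log2 fold change. Replicates of a genotype differed beyond counting noise, with a chi-square per gene of 88.5 for wild type and 48.3 for mutant livers.

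The members and gene lists were chosen with earlier results of these data known. All 31 members are named. From the other pathway genes the text names those called and the 4 with the smallest p, and from the regulator and acute phase lists those called, up to 4 each. Part of the regulator list is not reported here. Kng2, F13a1 and Alb fall outside these naming rules and were picked once values were known. Precision is lowest for genes with few reads, such as Procr with 8 to 21 reads per liver.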

Additional observations from a re-analysis of the deposited data

How the results depend on the processing

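Of 425 comparisons of a clotting gene's fold change or call under an alternative, 396 kept direction and call, 24 changed sign and 5 lost the call. All 5 lost calls were of F11. Over all genes, DESeq2 called 378 higher and 386 lower, no filter 410 and 419, limma on log2(FPKM + 1) 94 and 69, and on log2(FPKM + 0.1) 91 and 70. Total counts gave 124 lower. Leaving out 1 liver gave 114 (without K307R replicate 2) to 275 (without WT replicate 1) higher and 93 to 316 lower, with the same livers at the ends. The clotting genes called lower were 0 under both FPKM settings. Leaving out 1 liver gave 0 (without WT replicate 1, K307R replicate 1 or K307R replicate 2) or 1. The number called higher was 0 under every alternative. With the replicate block, 166 genes were higher and 181 lower, 1 clotting gene was lower and 0 higher, and F11 was at -1.002. The labels do not say whether the replicate numbers pair the livers. The replicate differences of the genotypes had a correlation of -0.0027 across genes, which cannot settle whether same-numbered livers shared a batch or day. Vwf changed sign with limma-voom (-0.046) and with the replicate block (-0.025). With 1 liver left out the log2 fold change ran from -0.005 to 0.157 for F2, -0.134 to 0.227 for F5, -0.120 to 0.275 for F7, -0.385 to 0.074 for F8, -0.153 to 0.276 for F9, -0.002 to 0.101 for F12, -0.131 to 0.521 for F13b and -0.160 to 0.435 for Klkb1. It ran from -0.598 to 0.471 for Vwf, -0.254 to 0.003 for Proc, -0.113 to 0.234 for Serpinc1, -0.026 to 0.184 for Serpind1, -0.292 to 0.530 for Thbd, -0.012 to 0.303 for Ggcx and -0.156 to 0.166 for Vkorc1. The other 16 genes did not change sign under any alternative run, but some came very near to it. Without WT replicate 2, Fgb was at 0.000, Habp2 at 0.032 and Fgg at 0.044. Without K307R replicate 2, Proz was at 0.025. The cause of these changes was not tested. A fit without 1 liver assumes that the lone liver varies like the other genotype.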
